A study of Homo sapiens with 12 samples.

Results

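The leucine mt-tRNAs of human mitochondria, MT-TL1 and MT-TL2, were followed through 6 MPAT-Seq libraries, which sequence the 3′ ends of mt-tRNAs. They were chosen as the mt-tRNAs charged with leucine, which makes 2 of the 22 mt-tRNAs measured. MT-TL1 encodes mt-tRNALeu(UUR) and MT-TL2 encodes mt-tRNALeu(CUN), each named for the leucine codons it reads. The cells were HEK293T, a line derived from human embryonic kidney, either with PDE12 (PDE12+/+) or with both copies of PDE12 disrupted (PDE12-/-). The MPAT-Seq libraries, 1 per condition, were PDE12+/+, PDE12-/-, PDE12-/- + WT (wild-type PDE12 expressed again), PDE12-/- + E351A (the catalytic mutant of PDE12 expressed), PDE12+/+ + mtPAP and PDE12-/- + mtPAP, the latter pair with the mitochondrial poly(A) polymerase overexpressed. Expression was induced with doxycycline. RNA for RNA-seq came from enriched mitochondria. For MPAT-Seq the labels name mitochondrial enrichment too, whereas the study's methods start from total RNA, so the source of that RNA is uncertain. The knockout was made with zinc finger nucleases and cloned from a single cell, so PDE12-/- against PDE12+/+ compares cell lines. RNA-seq of 3 PDE12+/+ and 3 PDE12-/- samples was also done. PDE12 is a nuclear gene and was not analysed here, so the knockout was not checked in these tables.

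A mitochondrial tRNA is cut out of a long transcript, and the bases C, C and A, which the gene does not encode, are then added to its 3′ end after the last encoded base, the discriminator base. The amino acid is attached to the A of this CCA. mtPAP adds adenines to RNA 3′ ends in mitochondria, and PDE12 is a 3′ exonuclease that removes them. Leucine is read by a pair of mt-tRNAs in human mitochondria because its codons fall into different boxes of the genetic code, UUR and CUN, where R stands for a purine and N for any base.

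Both genes are encoded on the + strand of mitochondrial DNA (build GRCh38). MT-TL1 (ENSG00000209082.1) is at chrM:3230-3304, between MT-RNR2, which ends at 3229, and MT-ND1, which starts at 3307. MT-TL2 (ENSG00000210191.1) is at chrM:12266-12336, between MT-TS2, which ends at 12265, and MT-ND5, which starts at 12337. The gene sequences, 75 and 71 bases long, are shown because their 3′ ends are what was measured. The capital marks the discriminator base, an A in both.
MT-TL1: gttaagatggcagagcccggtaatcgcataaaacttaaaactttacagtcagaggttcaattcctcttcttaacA
MT-TL2: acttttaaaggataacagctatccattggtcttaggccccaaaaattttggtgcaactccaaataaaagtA
The genes were identical at 36 of 76 aligned columns (47.4%). The 7 base pairs of the acceptor stem, read from the ends of each sequence, were all Watson-Crick pairs, with 2 G-C pairs in MT-TL1 and 1 in MT-TL2.

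The forward primers that chose the molecules to be amplified are shown because they set where each amplified product begins.
Primer for MT-TL1: gttaagatggcagagcccggtaatc
Primer for MT-TL2: aaggataacagctatccattggtc
The primer of MT-TL1 began at base 1 of the gene and that of MT-TL2 at base 8. Positions are counted from the discriminator base, so that +1 and +2 are the C positions of CCA, +3 is the A, and +4 is the first base beyond CCA. The tables of MT-TL1 reached +13 and those of MT-TL2 reached +11, so at most 10 and 8 added bases could be seen. These last positions equalled the furthest ones at which uncalled reference bases make up a share of 0.15 of a read from the primer, the default limit of the aligner Bowtie2. Over the 22 mt-tRNAs, the last position equalled this limit for 13 and lay 1 base beyond it for the other 9. The study removed primer sequences before mapping, whereas this limit counts the read from the primer. What set the last position, and whether longer tails were lost, was not tested.

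The GEO labels and the names of the deposited tables give the mtPAP libraries opposite genotypes. The names are followed here, because each table is identical to the source data of that name, and values by the labels are given where they change a direction. Reads at +3 over the 22 mt-tRNAs summed to between 264522 and 758684 per library. MT-TL1 had between 4225 and 22758 of these reads per library and MT-TL2 between 510 and 6265. Each mt-tRNA was amplified with its own primer, so these read numbers do not compare their abundance. The smallest share that 3 reads allow was 0.0132% to 0.0710% for MT-TL1 and 0.0479% to 0.588% for MT-TL2. With 1 library per condition there is no replicate check and no test, and all intervals and floors cover counting error only.

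Extension beyond CCA was measured as the reads at +4 in percent of the reads at +3. MT-TL1, the UUR reader, was extended in 33.1% of 4225 reads in PDE12+/+ (95% Wilson interval 31.7% to 34.5%) and in 65.8% of 13833 reads in PDE12-/- (65.0% to 66.6%). Wild-type PDE12 in the knockout gave 39.1% (37.8% to 40.4%), whereas the E351A mutant gave 82.1% (81.4% to 82.8%). Overexpressed mtPAP gave 84.2% in cells with PDE12 (83.0% to 85.2%) and 97.1% in cells without it (96.8% to 97.3%). By this measure the order of MT-TL1 ran from PDE12+/+ through wild-type PDE12, PDE12-/-, E351A and PDE12+/+ with mtPAP to PDE12-/- with mtPAP, and no neighbours in this order had overlapping intervals. The order depended on the measure. In percent of reads at the discriminator base, MT-TL1 was lowest with wild-type PDE12, at 19.2% against 29.7% in PDE12+/+, and E351A (78.4%) and PDE12+/+ with mtPAP (77.1%) had overlapping intervals.

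MT-TL2, the CUN reader, was extended in 10.3% of 1604 reads in PDE12+/+ (8.95% to 11.9%) and in 10.4% of 3318 reads in PDE12-/- (9.40% to 11.5%). Wild-type PDE12 in the knockout gave 1.39% of 4906 reads (1.09% to 1.75%), and the E351A mutant gave 27.2% of 6265 reads (26.1% to 28.3%). Overexpressed mtPAP gave 3 extended reads of 510 in cells with PDE12, 0.588% (0.200% to 1.72%), and 126 of 1042 in cells without it, 12.1% (10.3% to 14.2%). The values of MT-TL2 formed a low pair (PDE12+/+ with mtPAP and wild-type PDE12), a middle group (PDE12+/+, PDE12-/- and PDE12-/- with mtPAP) and E351A as the highest, with overlapping intervals inside the pair and the middle group.

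**Figure D1:**
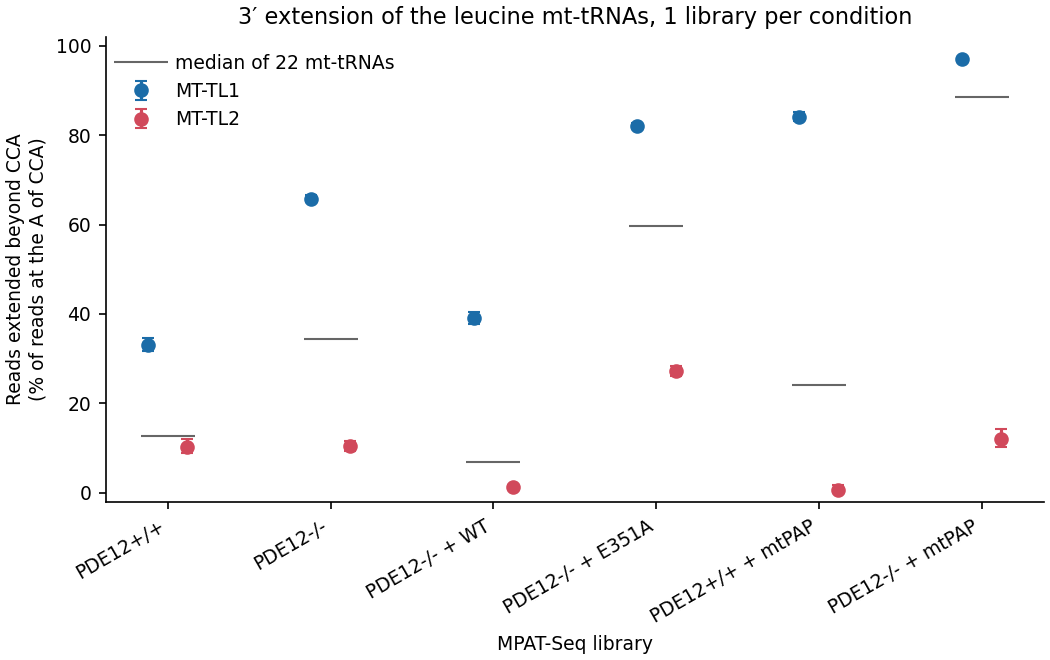
Percentage of reads extended beyond CCA (y axis, percent of reads at the A of CCA) for MT-TL1 (blue) and MT-TL2 (red) in the 6 MPAT-Seq libraries, with 95% Wilson intervals and the median of the 22 mt-tRNAs as a grey bar. MT-TL1 lies above that median and MT-TL2 below it in every library, from 33.1% to 97.1% and from 0.588% to 27.2%.

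MT-TL1 was extended more than MT-TL2 in 6 of 6 libraries, with intervals apart in each. The difference was smallest in PDE12+/+, 22.8 percentage points (95% Newcombe interval 20.6 to 24.8). In PDE12-/- it was 55.4 points (54.0 to 56.7). Expression of wild-type PDE12 there gave 37.7 points (36.4 to 39.1), and E351A gave 54.9 points (53.6 to 56.2). The mtPAP libraries had the widest differences, 83.6 points in PDE12+/+ (82.0 to 84.7) and 85.0 points in PDE12-/- (82.8 to 86.8).

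The libraries were then compared for each mt-tRNA. In PDE12-/-, MT-TL1 was extended 32.7 points more often than in PDE12+/+ (31.0 to 34.3), a ratio of 1.99. MT-TL2 differed by 0.05 points between these libraries (-1.82 to 1.82). Of the 22 mt-tRNAs, 72.7% were higher in PDE12-/- with Wilson intervals apart, MT-TL1 among them and MT-TL2 not, and the median difference was 11.5 points.

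The percentage of MT-TL2 hid a difference in tail length. The MT-TL2 reads with 1 added base were 115 of 166 extended reads in PDE12+/+ and 14 of 345 in PDE12-/-. Reads with at least 2 added bases made up 3.18% of reads at +3 in PDE12+/+ (2.43% to 4.16%), against 9.98% in PDE12-/- (9.00% to 11.0%). For at least 4 added bases these shares were 0.873% (0.521% to 1.46%) and 7.63% (6.77% to 8.58%), a difference of 6.75 points (5.72 to 7.77). The share of MT-TL2 reads with any added base thus did not differ beyond counting error, and its extensions were longer without PDE12. That share depended on which reads were counted. With only A at +4 counted, MT-TL2 was 2.42 points higher in PDE12-/- (0.68 to 4.06). With reads that carry A at the second C taken out, as if all of them were extended, the difference was -2.54 points (-4.11 to -1.11).

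**Figure D2:**
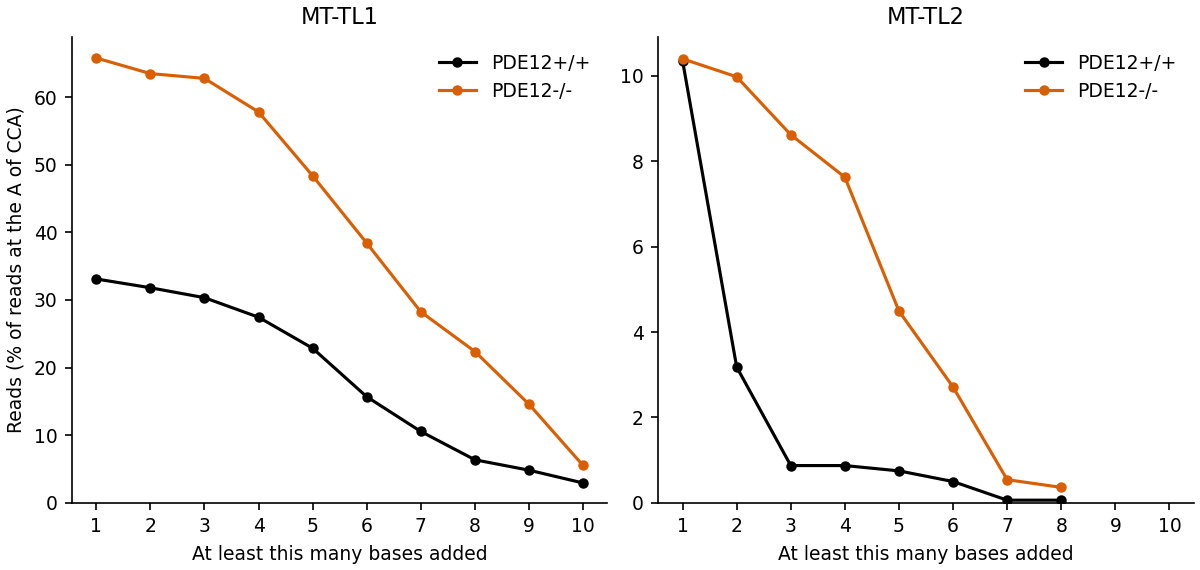
Percentage of reads at the A of CCA (y axis, with its own scale in each panel) that carried at least the number of added bases on the x axis, in PDE12+/+ (black) and PDE12-/- (orange). The MT-TL1 curves are apart from the first added base on, 33.1% and 65.8%, whereas the MT-TL2 curves start together near 10.3% and part at the next base, 3.18% and 9.98%.

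Expression of wild-type PDE12 in PDE12-/- cells went with lower extension of both mt-tRNAs. MT-TL1 was lower than in PDE12-/- (a difference of -26.68 points, -28.20 to -25.14) and lay 6.00 points above PDE12+/+ (4.07 to 7.93). The direction of the latter turned, to -10.55 points (-12.06 to -9.06) with reads at the discriminator base as denominator and to -18.20 points (-19.99 to -16.40) with reads that carry A at the second C taken out. For at least 4 added bases it was -0.66 points (-2.46 to 1.13). Taking out the reads with A at the second C assumes that all of them were extended, which counts per position cannot show. MT-TL2 was lower than in PDE12-/- too (a difference of -9.01 points, -10.13 to -7.95) and lay below PDE12+/+ (a difference of -8.96 points, -10.58 to -7.52). Of the 22 mt-tRNAs, 81.8% were lower with wild-type PDE12 than in PDE12-/- with intervals apart. Against PDE12+/+, by the reads at +4 of those at +3, 40.9% were higher, MT-TL1 among them, and 50.0% were lower, MT-TL2 among them. MT-TL2 stayed below PDE12+/+ under each other measure tried.

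With the E351A mutant, extension was higher than in PDE12-/- by 16.3 points for MT-TL1 (15.3 to 17.3) and by 16.8 points for MT-TL2 (15.2 to 18.3). These differences were close in points, and 81.8% of the 22 mt-tRNAs were higher with intervals apart, with a median difference of 16.5 points. Set against wild-type PDE12, the mutant library was higher by 43.0 points for MT-TL1 (41.5 to 44.4) and by 25.8 points for MT-TL2 (24.6 to 26.9). Of the 22 mt-tRNAs, 95.5% were higher in that comparison.

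Overexpressed mtPAP parted the leucine mt-tRNAs most. In PDE12+/+ cells MT-TL1 was extended 51.0 points more often with mtPAP (49.2 to 52.8), the third highest difference of the 22 mt-tRNAs, of which 68.2% were higher with intervals apart. MT-TL2 was less often extended with mtPAP (a difference of -9.76, -11.39 to -7.97), as were 18.2% of the mt-tRNAs. In PDE12-/- cells MT-TL1 was 31.3 points higher with mtPAP (30.4 to 32.1), as were 90.9% of the mt-tRNAs with intervals apart. MT-TL2 differed by 1.69 points (-0.44 to 4.04), beside a median of 40.9 points over the 22. PDE12-/- with mtPAP was above PDE12+/+ with mtPAP by 12.9 points for MT-TL1 (11.8 to 14.0) and by 11.5 points for MT-TL2 (9.34 to 13.7), and 95.5% of the mt-tRNAs were higher.

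By the GEO labels, the mtPAP comparisons of MT-TL1 kept their direction, at 63.9 points in PDE12+/+ and 18.4 points in PDE12-/-. Those of MT-TL2 turned, to 1.74 points in PDE12+/+ (-0.69 to 4.28) and to -9.81 in PDE12-/- (-10.96 to -8.31). Of the 22 mt-tRNAs, 22.7% were higher and 54.5% lower with intervals apart when the library named PDE12+/+ with mtPAP was set against PDE12-/-. Either way, 1 mtPAP library held MT-TL2 reads almost free of added bases beside MT-TL1 reads extended in 84.2%.

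Among the 22 mt-tRNAs ranked by percentage extended, MT-TL1 stood 6th in both PDE12+/+ and PDE12-/-, 4th when wild-type PDE12 was expressed, 5th when E351A was, and 2nd in both mtPAP libraries. MT-TL2 stood 13th in PDE12+/+ and 19th in PDE12-/-, then 21st for wild-type PDE12 and 20th for E351A, and 21st and 22nd for mtPAP in cells with and without PDE12. Among the 16 mt-tRNAs whose discriminator base is A, as in both leucine mt-tRNAs, MT-TL1 stood between 2nd and 5th and MT-TL2 between 10th and 16th. The number of mt-tRNAs between them was 6 in PDE12+/+ and 19 in PDE12-/- with mtPAP.

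In PDE12+/+ the values ran from 1.47% for MT-TV (valine) to 59.8% for MT-TI (isoleucine, 209 reads, 53.0% to 66.2%). In PDE12-/- they ran from 8.05% for MT-TR (arginine, 435 reads, 5.84% to 11.0%) to 91.1% for MT-TK (lysine). The interval of MT-TR there overlapped that of MT-TL2. In PDE12-/- with mtPAP MT-TL2 was itself the lowest, below the 21 others with intervals apart, while MT-TK was the highest at 98.4%. In that library the median of the 22 was 88.5%. The mt-tRNAs whose percentages were most like those of MT-TL1 over the 6 libraries were those for tyrosine (MT-TY, mean absolute difference 9.23 points), threonine (MT-TT, 15.6) and phenylalanine (MT-TF, 16.1). MT-TY had few reads, with 54 at +3 in PDE12+/+ with mtPAP. The mt-tRNAs most like MT-TL2 were MT-TV (5.94 points), MT-TR (10.3) and the cysteine mt-tRNA MT-TC (13.7).

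The lengths of the tails were read from the fall in reads from each position to the next. Extended MT-TL1 reads carried a median of 5 added bases in PDE12+/+ and 6 in PDE12-/-. The median was 5 when wild-type PDE12 was expressed and 6 when E351A was. It was 7 and 5 in the mtPAP libraries of PDE12+/+ and PDE12-/-. Their mean lay between 5.13 and 6.31 bases. Within the window of 10 added bases, MT-TL1 tails were therefore of much the same length where 33.1% of reads carried one and where 97.1% did. Among extended MT-TL1 reads, those with 4 or more added bases made up 82.9% in PDE12+/+ (80.9% to 84.8%) and 87.9% in PDE12-/- (87.2% to 88.5%), but 68.5% where wild-type PDE12 was expressed (66.5% to 70.5%). The 10-base tails at the edge of the window made up 3.95% to 8.86% of extended MT-TL1 reads.

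Extended MT-TL2 reads carried a median of 1 added base in PDE12+/+ and with wild-type PDE12. The median was 4 in the other libraries, from 3 reads in PDE12+/+ with mtPAP. With wild-type PDE12, 63 of 68 extended reads had 1 added base (92.6%, 83.9% to 96.8%), and 5 reads went further. With E351A the tails were spread over the window, from 21.7% with 1 added base to 9.17% with 8. In PDE12-/- with mtPAP, 97 of 126 extended MT-TL2 reads ended at 4 added bases (77.0%), 22 at 3, and 4 reads went beyond 4. In PDE12+/+ with mtPAP the 3 extended MT-TL2 reads carried 3, 4 and 6 bases. Leaving these 3 reads aside, no other tail of 4 or more bases took more than 30.1% of the extended reads of either mt-tRNA, the value of 4-base tails of MT-TL2 in PDE12-/-.

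**Figure D3:**
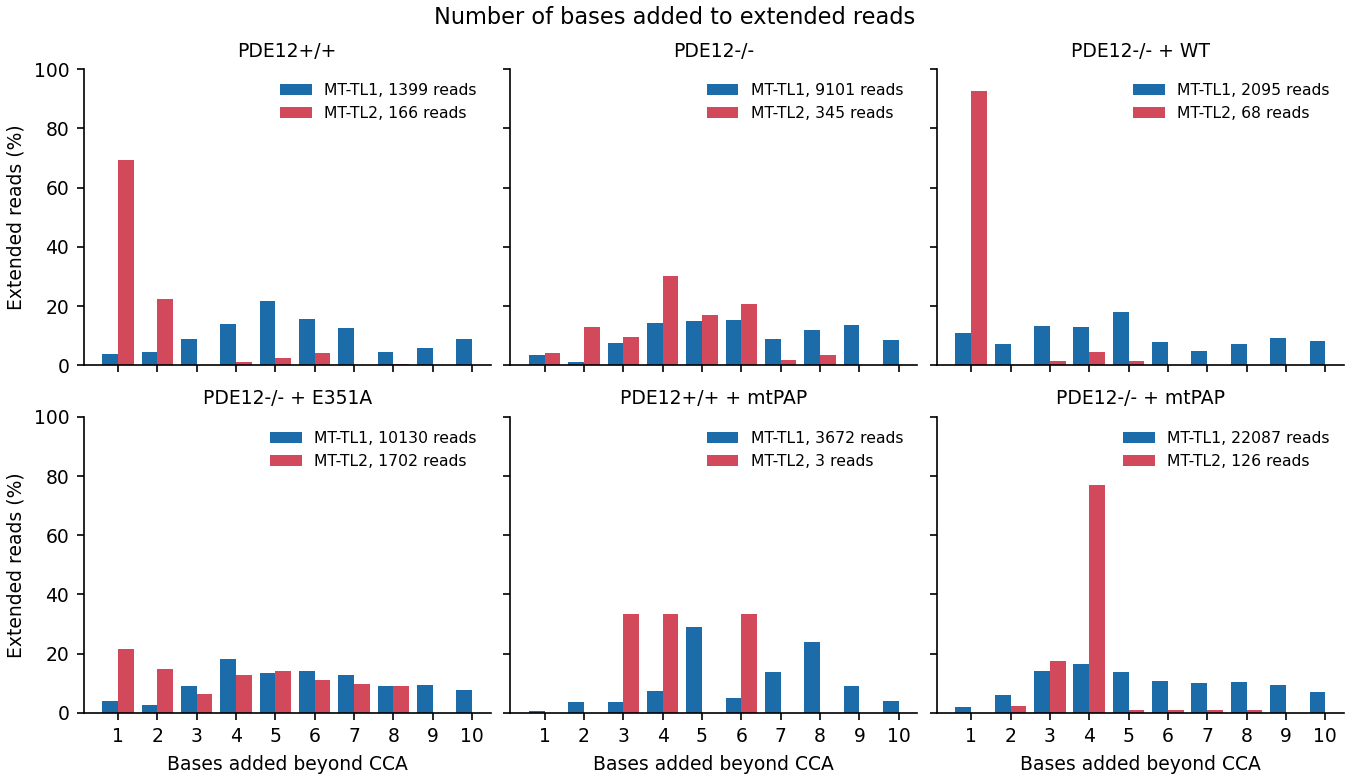
Number of bases added beyond CCA (x axis) in percent of the extended reads of each mt-tRNA (y axis), MT-TL1 in blue and MT-TL2 in red, with the extended reads in each legend. MT-TL1 tails spread over the window up to 10 bases in all libraries, whereas MT-TL2 tails were mostly 1 base long in PDE12+/+ and with wild-type PDE12 and 4 bases long in 77.0% of reads in PDE12-/- with mtPAP.

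Read position by position, MT-TL1 and MT-TL2 therefore differed at the step from +3 to +4. Of the MT-TL1 reads at the discriminator base, 29.7% reached +4 in PDE12+/+, 62.0% in PDE12-/- and 94.6% in PDE12-/- with mtPAP. Of the MT-TL2 reads, 9.24%, 9.54% and 10.6% did. MT-TL1 reads that had passed +4 mostly went on, with 96.1% to +5 in PDE12+/+ and 96.5% in PDE12-/-. MT-TL2 reads did so in 30.7% in PDE12+/+ and in 95.9% in PDE12-/-, but in 7.35% where wild-type PDE12 was expressed.

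**Figure D4:**
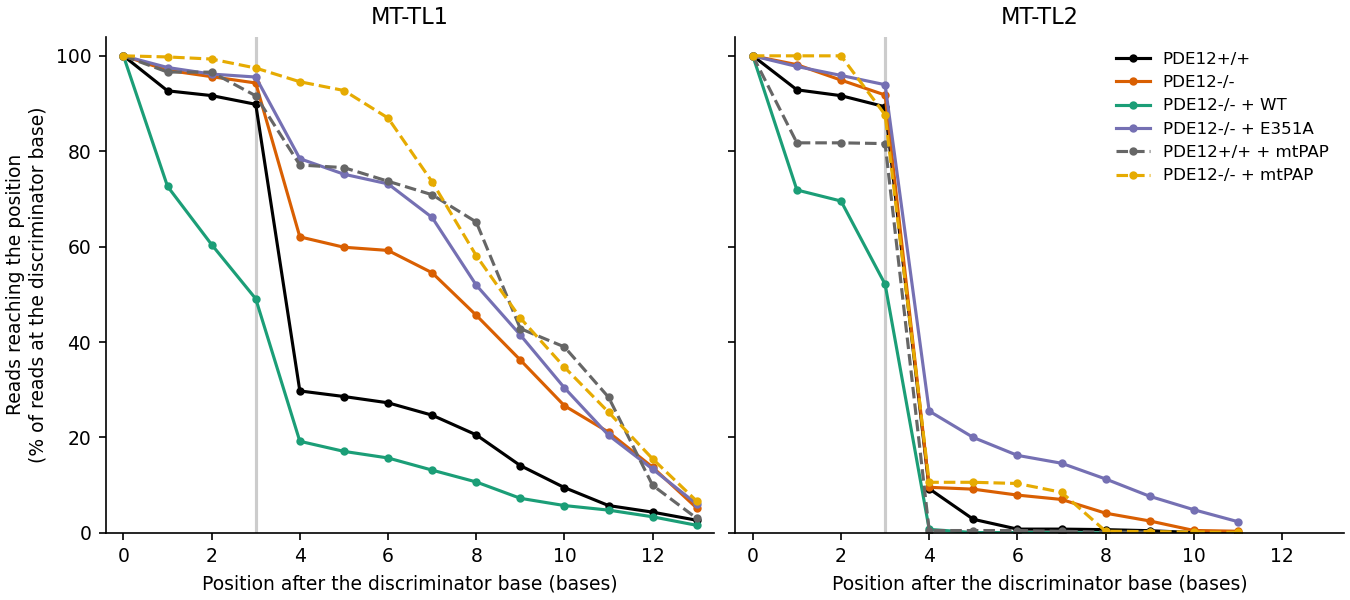
Reads that reached each position (x axis, bases after the discriminator base) in percent of the reads at the discriminator base (y axis), for the 6 libraries, with a grey line at the A of CCA. The curves of wild-type PDE12 fall before this line, to 49.1% for MT-TL1 and 52.1% for MT-TL2 at +3. At +4 the MT-TL1 curves spread from 19.2% with wild-type PDE12 to 94.6% in PDE12-/- with mtPAP, and the MT-TL2 curves drop to between 0.480% and 25.5%.

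The added bases were mostly A. Of the bases read at +4 and beyond, A made up 95.5% in PDE12+/+ and between 98.5% and 99.9% in the other 5 libraries for MT-TL1. For MT-TL2, A made up 85.8% of 267 bases in PDE12+/+, 91.5% of 1484 in PDE12-/-, 97.7% of 6834 with E351A and 100% of 486 in PDE12-/- with mtPAP. The other 2 libraries gave few bases, with 75 A of 83 for wild-type PDE12 and 11 A of 13 in PDE12+/+ with mtPAP. The base that took most of the rest in MT-TL2 was C. At +4 it was read in 38 of 166 reads in PDE12+/+ (22.9%, 17.2% to 29.9%) and 76 of 1702 with E351A (4.47%, 3.58% to 5.55%), but in 0 of 345 in PDE12-/- (0% to 1.10%). In PDE12-/- C stood further out and made up 8.36% of the bases at +4 and beyond.

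C at +4 was also read in MT-TL1, in 6.43% of 1399 reads in PDE12+/+ (5.26% to 7.84%) and in 0.330% of 9101 reads in PDE12-/- (0.231% to 0.470%). For both mt-tRNAs, then, C at the first added position took a larger share of extended reads in PDE12+/+ than in PDE12-/-. Further out, equal counts of a base other than A stood at neighbouring positions. MT-TL1 in PDE12+/+ had 30 reads with G, T, G, T and G at +7, +8, +9, +10 and +11. MT-TL1 in PDE12-/- had 96 reads with C at +6, +7 and +8, and 93 with G at +11 and +12. It had 100 with T at +4 and 93 with T at +10. The G, T and G of PDE12+/+ at +7, +8 and +9 differ from the genome after MT-TL1, which has C, C and A there. The bases listed for PDE12-/- are those that the genome encodes at their positions, as in RNA not yet cut behind the tRNA. Such reads count as extended here, and whether they came from uncut RNA was not tested. MT-TL2 in PDE12-/- had 44 reads with C at +7 and +8, where the genome has A and T. The tables give bases per position and not per read, and the amplified reads carry no molecular identifiers, so copies of 1 molecule were not told apart.

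At the C positions themselves, A in place of C can stand for a tail that began before CCA was complete. At +1 it can also stand for RNA not yet cut behind the tRNA. In the genome, MT-TL1 is followed by acatacccatgg and MT-TL2 by ataaccatgcac, so the next encoded base is an A in both, then a C after MT-TL1 and a T after MT-TL2. Uncut RNA would thus show A at +1 but not at +2, and uncut MT-TL1 RNA would read as CCA does at +2 and +3. At +2, the second C position, A was read in 1.28% of 4311 MT-TL1 reads in PDE12+/+ (0.98% to 1.66%) and in 1.95% of 14027 in PDE12-/- (1.73% to 2.19%). With wild-type PDE12 it was read in 23.7% of 6596 MT-TL1 reads (22.7% to 24.7%), and in the other 3 libraries in 1.38% to 2.15%.

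MT-TL2 had a different pattern over the libraries. A at +2 was read in 3.22% of 1646 MT-TL2 reads in PDE12+/+ (2.47% to 4.19%), in 5.74% of 3431 in PDE12-/- (5.01% to 6.57%) and in 10.7% of 6395 with E351A (10.0% to 11.5%). With wild-type PDE12 it was 0.183% of 6549 reads (0.105% to 0.320%). It was 0.587% and 0.336% with mtPAP in PDE12+/+ and PDE12-/-. With wild-type PDE12, MT-TL2 had the lowest percentage of the 22 mt-tRNAs and MT-TL1 the 6th highest, beside a median of 2.42%. T at +2 of MT-TL2, the base that uncut RNA would show, was read in 48 reads with E351A and in 0 to 3 in the other libraries.

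These reads bear on the percentages above. With the reads that had A at +2 taken out, as if all of them were extended, MT-TL1 with wild-type PDE12 was extended in 14.0% of reads (13.0% to 15.2%) in place of 39.1%, below the 32.2% of PDE12+/+ by the same count (30.8% to 33.7%). MT-TL2 was then extended in 7.29% in PDE12+/+, 4.74% in PDE12-/- and 18.2% with E351A. MT-TL1 remained above MT-TL2 in 6 of 6 libraries.

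Reads that ended before the A of CCA made up 10.2% of the MT-TL1 reads at the discriminator base in PDE12+/+ (9.33% to 11.1%), 5.69% in PDE12-/- (5.33% to 6.08%) and 4.44% where E351A was expressed (4.10% to 4.81%). In the library of wild-type PDE12 they made up 50.9% (50.0% to 51.9%). MT-TL2 gave 10.7% in PDE12+/+ (9.34% to 12.2%), 8.22% in PDE12-/- (7.36% to 9.16%) and 6.06% for E351A (5.51% to 6.66%), but 47.9% for wild-type PDE12 (46.9% to 48.9%). Short ends were thus far more frequent in the wild-type PDE12 library than in PDE12+/+ for both mt-tRNAs, as was the median of the 22, at 37.4% and 7.38%.

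The short ends of that library were not alike. Of the MT-TL1 reads at the discriminator base, 27.4% ended there, 12.2% after 1 more base and 11.4% after 2. Of the MT-TL2 reads, 28.1% ended at the discriminator base, 2.32% after 1 more base and 17.5% after 2, where CC without A stood. In PDE12-/- with mtPAP, 147 of 1189 MT-TL2 reads ended after 2 bases and 0 at either position before, where 3 reads would make up 0.252%. In PDE12+/+ with mtPAP, 114 of 625 MT-TL2 reads ended at the discriminator base and 1 at a later position short of the A. MT-TL1 in PDE12-/- with mtPAP had the fewest short ends, 2.56% (2.37% to 2.77%).

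**Figure D5:**
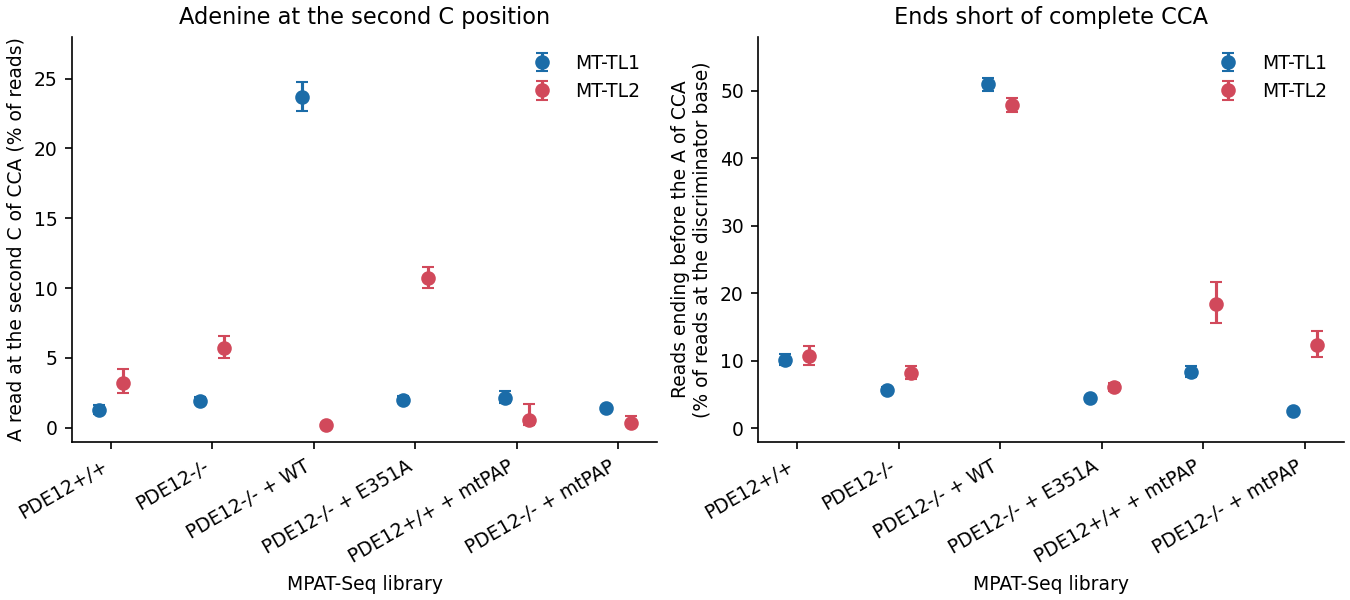
Left, percentage of reads with A at the second C position of CCA, and right, percentage of reads at the discriminator base that ended before the A of CCA, for MT-TL1 (blue) and MT-TL2 (red) in the 6 libraries with 95% Wilson intervals. With wild-type PDE12, A at the C position reached 23.7% in MT-TL1 and 0.183% in MT-TL2, while both mt-tRNAs had short ends in about the same share, 50.9% and 47.9%.

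RNA-seq gave another readout of these genes between the genotypes, with few counts, since each sample had between 36338 and 104708 counts over the 35 mitochondrial genes. Forward counts, sense for both genes, were 5, 10 and 13 for MT-TL1 in PDE12+/+ and 27, 7 and 9 in PDE12-/-, and the groups overlapped. The log2 fold change of MT-TL1 was 0.22 with an SE of 0.52 (edgeR quasi-likelihood test, Benjamini-Hochberg adjusted p = 0.966). Without PDE12-/- replicate 1 it turned to -0.55 (adjusted p = 0.718). Forward counts of MT-TL2 were 2, 1 and 3 in PDE12+/+ and 1, 3 and 5 in PDE12-/-, at the floor of 3 counts or near it, so no fold change is given.

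Reverse counts, antisense, were 15, 54 and 44 for MT-TL2 in PDE12+/+ and 44, 16 and 36 in PDE12-/-, more than its sense counts in 6 of 6 samples. They were 0 to 2 for MT-TL1. The antisense counts of MT-TL2 had a log2 fold change of -0.60 with an SE of 0.41 (edgeR, adjusted p = 0.759). Of the 70 gene and strand features, 0% passed an adjusted p of 0.05 in edgeR, with 5 at an unadjusted p under 0.05, and DESeq2 called 0 with 4 unadjusted. With a replicate block edgeR called 4 features, MT-ND2, MT-TN, MT-CO1 and MT-CO2 forward, with no leucine mt-tRNA among them (MT-TL2 antisense -0.62, adjusted p = 0.258). Samples of a genotype share 1 cell line, so p-values measure the spread between these samples.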

How the data were processed

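RNA-seq was done on 3 PDE12+/+ and 3 PDE12-/- samples and MPAT-Seq on 6 libraries, 1 per condition. For RNA-seq, the authors trimmed reads, mapped them to GRCh38 with Bowtie2 and deposited raw counts for each mitochondrial gene on either strand. In MPAT-Seq, RNA was ligated to a linker, reverse transcribed and amplified with a primer for each mt-tRNA. The authors removed primer sequences and mapped reads longer than a minimum to mt-tRNAs followed by uncalled positions. The deposited tables hold, from the discriminator base on, the reads covering a position and the counts of A, C, G and T, with no normalization and no molecular identifiers. Reverse transcription must pass modified bases, so molecules without them may be over-represented, and amplification can repeat molecules. Versions of the authors' tools are not given in the sources used here.

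From these counts, percentages were computed with 95% Wilson intervals and differences with 95% Newcombe intervals (SciPy 1.17.1, Python 3.11.15). A percentage was called higher or lower when its interval lay apart. The tables of 22 mt-tRNAs were used, with MT-TY and MT-TD read at their corrected positions and name. Tail lengths are the fall in reads between neighbouring positions. The 70 RNA-seq features were compared in edgeR 4.0.16 under R 4.3.3 (TMM, common dispersion, genotype alone, Benjamini-Hochberg adjustment), which was tested on simulated data, and with DESeq2 1.42.0. The SE was taken from the test statistic. Deviations from the genotype mean in same-numbered RNA-seq samples had correlations of 0.580, 0.370 and 0.217 over 47 features. However, PDE12+/+ replicate 3 and PDE12-/- replicate 2 were each other's best match, so these correlations do not settle the pairing. A replicate block was fitted as an alternative, with the numbers of the labels taken as pairs. Sequences came from the mitochondrial genome of GRCh38 and the study's primer list, genes from GENCODE, and the alignment from Biopython 1.88.

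Groups follow the labels, except that the genotype of the mtPAP libraries follows the table names. The other mt-tRNAs named are the 3 most like each leucine mt-tRNA in percentage extended and the lowest or highest of the 22. Those that were lower with mtPAP in PDE12+/+, as MT-TL2 was, are named too. The 4 features called with the replicate block are named because their number is small. The members and lists were chosen with earlier results of these data known. Alternatives were another denominator, only A at +4, +5 in place of +4, removal of reads whose second C was read as A, the mtPAP genotype by label, leaving out tails of 1 base, a last position of +11, reads with A or C as denominator, scaling by library totals in place of TMM, a minimum of 10 counts per sample, and leaving out each sample. Reads at +7 in place of +4 were added after seeing the data. Cell line markers could not be checked, since the tables used hold mitochondrial genes.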

Additional observations from a re-analysis of the deposited data

Results flagged for a closer look

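Overexpressed mtPAP went with opposite differences of MT-TL2 in the 2 genotypes. The percentage extended differed by -9.76 points from the library without mtPAP in PDE12+/+ and by 1.69 points in PDE12-/-, and it was this opposite direction that drew attention. Each value comes from 1 library a condition, the second has an interval that includes 0 (-0.44 to 4.04), and the difference between the genotypes was not tested. The library behind the first value held 3 extended MT-TL2 reads of 510. By the GEO labels the directions were exchanged, at 1.74 and -9.81 points. The opposite direction was not particular to MT-TL2. By the table names, MT-TM, MT-TN and MT-TQ were also lower with mtPAP in PDE12+/+ with intervals apart. Together with MT-TL2 they made up 18.2% of the 22 mt-tRNAs. In PDE12-/- these other mt-tRNAs were higher with mtPAP. MT-TM went from 17.4% to 63.1%, MT-TN from 26.5% to 81.8% and MT-TQ from 8.14% to 90.3%.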

How the results depend on the processing

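MT-TL1 was extended more than MT-TL2, with intervals apart, in 6 of 6 libraries under each alternative. Of 64 differences between libraries recomputed, 58 kept their sign and 25 stayed inside the interval of the value reported.

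With the discriminator base as denominator, the difference of MT-TL1 was -42.9 points for wild-type PDE12 against PDE12-/-, and 47.4 and 32.5 for mtPAP in PDE12+/+ and PDE12-/-. Counting only A at +4, MT-TL1 gave 34.5 for PDE12-/- against PDE12+/+, -28.5 for wild-type PDE12 and 53.7 for mtPAP in PDE12+/+, and MT-TL2 gave 2.42 for PDE12-/- and -7.39 for mtPAP in PDE12+/+. With +5 in place of +4, MT-TL1 gave -28.7 for wild-type PDE12 and 15.2 for E351A, and MT-TL2 gave 6.80 for PDE12-/-, 11.3 for E351A and -2.59 for mtPAP in PDE12+/+. With A at the second C taken out, MT-TL1 gave -51.1 for wild-type PDE12, and MT-TL2 gave -2.54 for PDE12-/-, -3.60 for wild-type PDE12, 13.5 for E351A, and -7.29 and 7.01 for mtPAP in PDE12+/+ and PDE12-/-. With +7, MT-TL1 gave 30.4 for PDE12-/-, -31.0 for wild-type PDE12, 11.4 for E351A and 17.7 for mtPAP in PDE12-/-, and MT-TL2 gave 6.75, -7.54 and 7.91 for the first 3 of these and -0.48 for mtPAP in PDE12+/+. By the GEO labels, mtPAP gave 63.9 and 18.4 for MT-TL1, and 1.74 and -9.81 for MT-TL2, in PDE12+/+ and PDE12-/-.

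For wild-type PDE12 against PDE12+/+, MT-TL1 turned to -10.55 with the discriminator base as denominator, to -18.20 with A at the second C taken out and to -0.66 with +7, and gave 2.99 with +5. MT-TL2 gave -6.61 for only A, -3.08 with +5, -6.14 with A at the second C taken out and -0.79 with +7.

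With tails of 1 base left out, the median of MT-TL2 in PDE12+/+ was 2, and the other medians of the 2 genotypes were unchanged. A last position of +11 could not move these medians, since MT-TL2 already ended there and the MT-TL1 medians lay before it. Another denominator moved A at the C positions by at most 0.137 points.

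In RNA-seq, 4 features were called with the replicate block and 2 with library totals without TMM (MT-ND2 and MT-ATP6 forward), which shifted all features by a median log2 of 0.27. Leaving out a sample gave 0 calls in each case, and MT-TL1 ranged from -0.55 to 0.54, turning without PDE12-/- replicate 1. MT-TL2 antisense ranged from -0.86 to -0.38. The block changed no other call. MT-TL1 fell under the minimum of 10 counts and gave no value there. The cause of these changes was not tested. Few extended MT-TL2 reads in the mtPAP libraries limit its tail lengths.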
